A study of Brassica napus with 2 samples.

Results

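The *IAA10* and *IAA11* orthologs of *Brassica napus* (rapeseed, an allotetraploid that carries the An and Cn subgenomes) were the *Aux/IAA* genes for which the ortholog list of the study names AT1G04100 (*IAA10*) or AT4G28640 (*IAA11*) of *Arabidopsis thaliana*. This gave 6 of the 119 *Aux/IAA* genes listed by the study, and all 6 were among the 63193 genes of the expression table. The *IAA10* orthologs are *BnaA10.IAA.1* (BnaA10g02380D) on chromosome A10 and its homeolog *BnaC05.IAA.1* (BnaC05g02280D) on chromosome C05. The *IAA11* orthologs are the homeologs *BnaA01.IAA.3* (BnaA01g08280D) on chromosome A01 and *BnaC01.IAA.3* (BnaC01g09830D) on chromosome C01, together with *BnaC07.IAA.4* (BnaC07g41460D) on chromosome C07 and *BnaA03R.IAA.1* (BnaA03g58910D) on unplaced sequence of chromosome A03. For the last 2 genes the ortholog list gives no homeolog within *B. napus*. These names and groupings are those of the study, on the Darmor-*bzh* genome v4.2.

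RNA was sequenced from 2 pools of 30-day-old seedlings grown on MS agar medium, each pool made of 10 seedlings. The treated pool was kept for 3 h with 1 μM the natural auxin indole-3-acetic acid (IAA), and the control pool for 3 h without IAA, in liquid MS medium according to the treatment protocol and in water according to the label of the sample. Each condition was 1 library, so that no spread between replicates exists, no test of the conditions can be made, and a difference between the pools cannot be told apart from an effect of IAA. Whole seedlings were used, and fewer cells that express a gene cannot be told apart from less RNA of that gene per cell. The seedling label was not checked against marker genes, since the identifiers of the table carry no gene names. Expression was given as FPKM, the number of sequenced fragments of a gene scaled for the length of its transcript and for the size of the library. Depth was estimated from the low values as 18300000 fragments in the IAA library and 23700000 fragments in the control library. From the same estimate the fragments behind each value were obtained, with exact intervals at 95% that cover counting error only.

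Aux/IAA proteins are short-lived nuclear repressors. They bind auxin response factors (ARFs) through a C-terminal PB1 domain, recruit TOPLESS corepressors through an N-terminal motif, and are degraded when auxin brings them together with the TIR1/AFB F-box receptors. Many *Aux/IAA* genes are themselves targets of ARFs, which makes them part of a negative feedback on the auxin signal. In *Arabidopsis*, *IAA10* and *IAA11* are close relatives of *IAA12* (*BODENLOS*) and *IAA13*, which repress *ARF5* (*MONOPTEROS*) during root initiation in the embryo, and *IAA10* acts in the suspensor of the embryo together with *ARF9*. In *B. napus* the orthologs of these 4 genes make up subgroup B3 of the family in the phylogeny of the study.

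All 6 genes had more FPKM in the IAA library than in the control library, as did 67 of the 93 *Aux/IAA* genes with values and 23568 of all 63193 genes. The difference ranged from 1.06-fold to 3.93-fold among the 6, with the second largest at 1.63-fold. Only *BnaA03R.IAA.1*, an *IAA11* ortholog, was at least 2-fold higher with IAA, and none was at least 2-fold lower. Of all 63193 genes, 4.22% were higher and 8.68% lower by this rule. Among the 43979 genes that reached 1 FPKM in either library, a level that all 6 genes reached, these shares were 2.51% and 4.86%. The median log2 fold change of the 6 genes, calculated after 0.1 FPKM was added to both values, was 0.44, against -0.13 for all genes and 0.59 for the 93 *Aux/IAA* genes. By the same rule, 39 of those 93 genes were higher and 1 was lower. The 39 included genes with few fragments, such as *BnaC07.IAA.2* with 1 estimated fragment with IAA and 0 in the control. Among the *Aux/IAA* genes that reached 1 FPKM in either library, the median log2 fold change was 0.67. The 6 genes were chosen by ancestry and not by their values, but with earlier results of these libraries known.

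*BnaA03R.IAA.1* was expressed at 5.89 FPKM in the IAA library and at 1.5003 FPKM in the control library. These values correspond to 85 estimated fragments with IAA and 28 in the control. The level with IAA was therefore 3.93-fold that of the control, with a counting interval from 2.54 to 6.26 (log2 fold change 1.91). The whole interval lay above 2-fold. In the order of log2 fold changes the gene was number 20 of the 93 *Aux/IAA* genes. Of the 43979 genes that reached 1 FPKM in either library, 421 genes, or 0.957%, had a log2 fold change at least as high.

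*BnaC07.IAA.4*, another *IAA11* ortholog, was expressed at 4.24 FPKM with IAA and at 2.93 FPKM in the control, from 104 estimated fragments with IAA and 93 in the control. The fold was 1.45 with an interval from 1.08 to 1.94. The interval excluded equal levels in these libraries. It also ended below 2-fold, but not after the libraries were centred on the median gene (interval from 1.16 to 2.06). In the list of orthologs, the *B. rapa* counterpart of *BnaC07.IAA.4* lies on chromosome A03, where *BnaA03R.IAA.1* has been assigned without a position, but the list does not pair both *B. napus* genes.

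The homeologs *BnaA01.IAA.3* and *BnaC01.IAA.3* had the fewest fragments of the *IAA11* orthologs with IAA. *BnaA01.IAA.3* was at 1.75 FPKM with IAA and 1.61 FPKM in the control (1.08-fold, interval from 0.651 to 1.80), from 31 estimated fragments with IAA and 37 in the control. *BnaC01.IAA.3* was at 1.82 FPKM with IAA and 1.11 FPKM in the control (1.63-fold, interval from 0.859 to 3.16), from 24 estimated fragments with IAA and 19 in the control. At this depth neither gene could be shown to differ between the libraries. A 2-fold increase lay outside the interval of *BnaA01.IAA.3* and inside that of *BnaC01.IAA.3*.

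The *IAA10* orthologs were expressed well above the *IAA11* orthologs and differed little between the libraries. *BnaA10.IAA.1* was at 18.3 FPKM with IAA and at 17.3 FPKM in the control (1.06-fold, interval from 0.916 to 1.22), from 351 estimated fragments with IAA and 430 in the control. *BnaC05.IAA.1* was at 17.97 FPKM with IAA and at 13.9 FPKM in the control (1.29-fold, interval from 1.11 to 1.499), from 360 estimated fragments with IAA and 361 in the control. A 2-fold difference lay outside both intervals, and only that of *BnaC05.IAA.1* excluded equal levels.

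**Figure D1:**
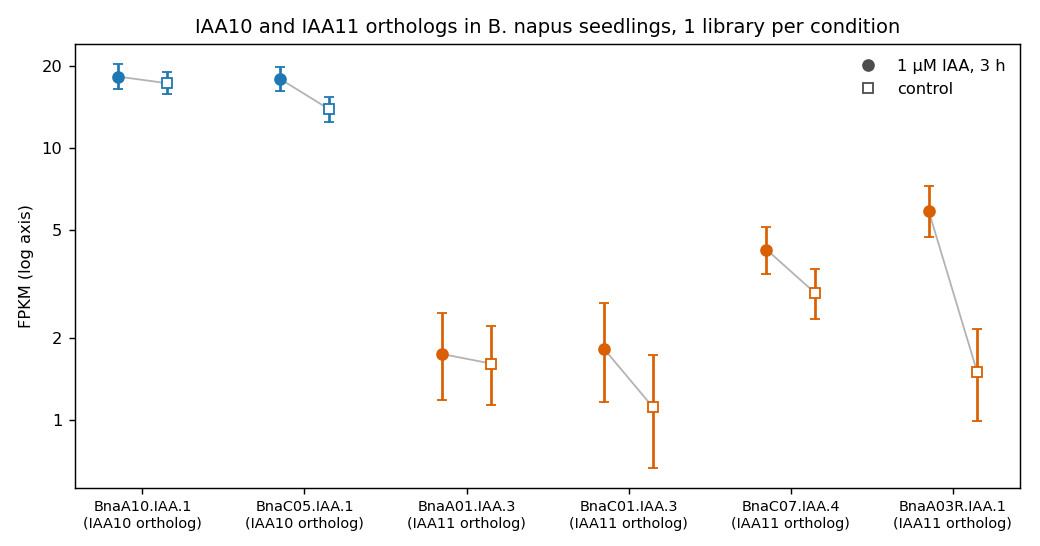
FPKM (log axis) of the 6 *IAA10* (blue) and *IAA11* (orange) orthologs in the IAA library (filled circles) and the control library (open squares), with exact Poisson intervals at 95% of the estimated fragments and a line joining the values of a gene. *BnaA03R.IAA.1* stands at 5.89 FPKM with IAA and 1.5003 FPKM in the control, whereas the *IAA10* orthologs stay between 13.9 and 18.3 FPKM in both libraries.

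The order of the genes by level was not the same in the libraries. With IAA, *BnaA10.IAA.1* and *BnaC05.IAA.1* came first, with a ratio of 1.02 between them (interval from 0.879 to 1.19), followed by *BnaA03R.IAA.1*, *BnaC07.IAA.4*, *BnaC01.IAA.3* and *BnaA01.IAA.3*. In the control, the order was *BnaA10.IAA.1*, *BnaC05.IAA.1*, *BnaC07.IAA.4*, *BnaA01.IAA.3*, *BnaA03R.IAA.1* and *BnaC01.IAA.3*. *BnaA03R.IAA.1* was thus the most expressed *IAA11* ortholog in the IAA library, at 1.39 times the FPKM of *BnaC07.IAA.4* (interval from 1.03 to 1.87). In the control it could not be separated from its neighbours in the order, since the ratio of *BnaA01.IAA.3* to it was 1.08 (interval from 0.640 to 1.82) and its ratio to *BnaC01.IAA.3* was 1.35 (interval from 0.727 to 2.56). The drop between the *IAA10* orthologs and the next gene exceeded the counting error in both libraries, at 3.05-fold with IAA (interval from 2.41 to 3.92) and 4.75-fold in the control (interval from 3.78 to 6.05).

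The folds of the 6 genes were compared with each other in 15 pairs. With intervals widened for 15 comparisons (99.7% each), 4 pairs differed, and *BnaA03R.IAA.1* was in all 4. Its fold was 2.72 times that of *BnaC07.IAA.4* (widened interval from 1.25 to 6.17), 3.05 times that of *BnaC05.IAA.1* (from 1.55 to 6.35), 3.63 times that of *BnaA01.IAA.3* (from 1.34 to 10.1) and 3.71 times that of *BnaA10.IAA.1* (from 1.90 to 7.74). Against *BnaC01.IAA.3* the ratio was 2.40, and the widened interval from 0.736 to 7.75 included 1. In the 10 pairs without *BnaA03R.IAA.1* the largest ratio was 1.55, between *BnaC01.IAA.3* and *BnaA10.IAA.1* (widened interval from 0.586 to 4.21). These intervals cover counting error in the 2 libraries and no differences between pools of seedlings.

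**Figure D2:**
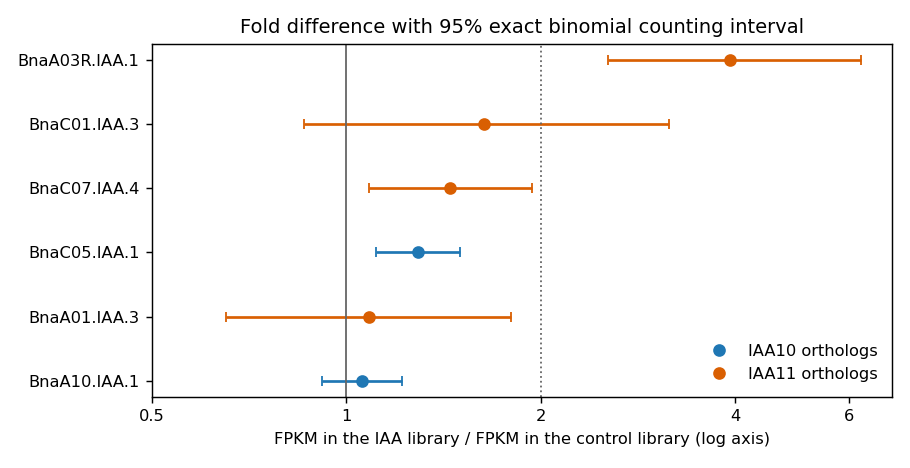
Fold difference of each gene, as FPKM in the IAA library over FPKM in the control library (log axis), with exact binomial intervals at 95% of the estimated fragments; the solid line marks equal levels and the dotted line a 2-fold increase. The interval of *BnaA03R.IAA.1* (2.54 to 6.26) lies above 2-fold, while those of *BnaC07.IAA.4*, *BnaC05.IAA.1*, *BnaA01.IAA.3* and *BnaA10.IAA.1* end below it, which for *BnaC07.IAA.4* is lost after centring (upper limit 2.06).

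Within the homeologous pairs, the An copy made up a smaller share with IAA in both cases. *BnaA10.IAA.1* contributed 50.5% of the FPKM of the *IAA10* pair with IAA (interval from 46.8% to 54.2%) and 55.4% in the control (interval from 52.0% to 59.0%). The fold of *BnaC05.IAA.1* was 1.22 times that of *BnaA10.IAA.1*, with a 95% interval from 0.992 to 1.504 that included equal folds. *BnaA01.IAA.3* contributed 49.0% of its pair with IAA (interval from 35.3% to 63.1%) and 59.2% in the control (interval from 44.8% to 72.7%). Here the fold of *BnaC01.IAA.3* was 1.51 times that of *BnaA01.IAA.3* (95% interval from 0.653 to 3.49). Neither pair therefore showed folds that differed beyond counting error, although the interval of the second pair was wide.

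Summed over genes, the *IAA10* orthologs reached 36.3 FPKM with IAA and 31.3 FPKM in the control (1.16-fold, log2 fold change 0.21). The *IAA11* orthologs reached 13.7 FPKM with IAA and 7.16 FPKM in the control (1.91-fold, log2 fold change 0.93). The *IAA10* sum rested on 711 fragments with IAA and 791 in the control, with an interval of the fragment fold from 1.05 to 1.29. The *IAA11* sum rested on 244 fragments with IAA and 177 in the control. The fragment fold was 1.79, with an interval from 1.47 to 2.179 that is not an interval of the 1.91-fold of the summed FPKM. Of the 6.54 FPKM by which the *IAA11* sum was higher with IAA, *BnaA03R.IAA.1* alone made up 4.39 FPKM. Its share of the *IAA11* FPKM was 43.0% with IAA and 21.0% in the control. Without it, the other 3 *IAA11* orthologs together reached 7.81 FPKM with IAA and 5.66 FPKM in the control (1.38-fold, interval on the summed fragments from 1.098 to 1.74). The *IAA10* pair held 72.6% of the FPKM of all 6 genes with IAA and 81.4% in the control.

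Homeologs and older copies of a gene can share sequence, and Cufflinks can divide fragments that map to several copies, so that the values of close relatives are less certain than those of single genes. Whether fragments of the 6 genes were divided in this way was not tested.

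When the *Aux/IAA* genes were grouped by their *Arabidopsis* ortholog, 28 groups had at least 1 gene with values. Ordered by the median log2 fold change, the *IAA11* orthologs (median 0.59, from 0.11 to 1.91) were number 15 and the *IAA10* orthologs (median 0.22, from 0.08 to 0.36) number 18. At the upper end stood groups in which every gene was at least 2-fold higher, among them the orthologs of *IAA19* (5 of 5 genes) and *IAA29* (4 of 4 genes). The position of the groups is a description of these libraries, and several groups rested on 1 gene or on few fragments.

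**Figure D3:**
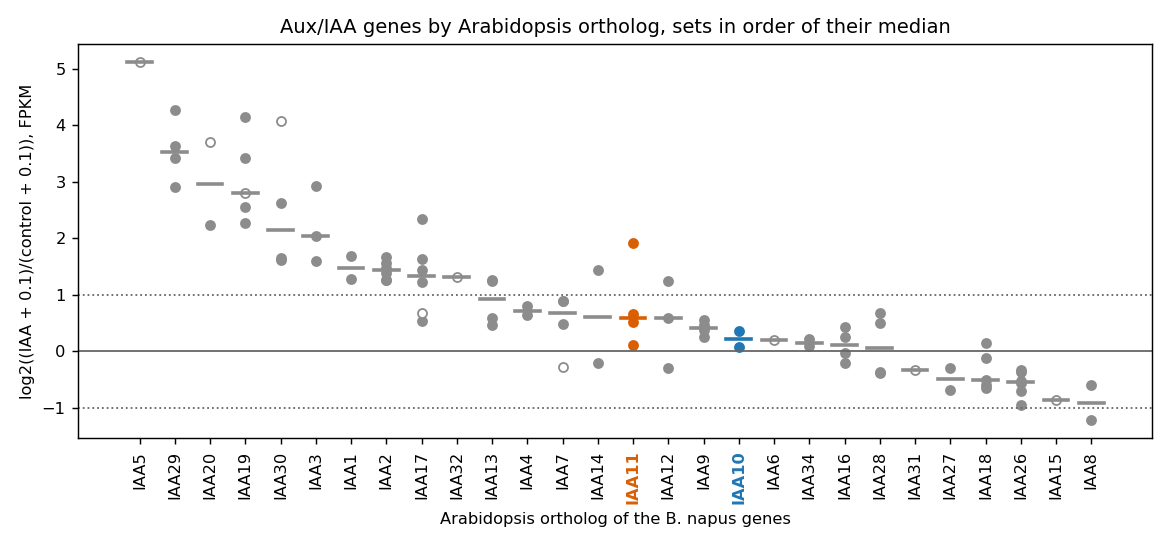
Log2 fold change (IAA over control, 0.1 FPKM added to both) of the *Aux/IAA* genes, grouped by *Arabidopsis* ortholog and ordered by the group median (bars); points are genes, and open points are genes with at most 3 estimated fragments in 1 or both libraries. The *IAA11* orthologs (orange) spread from 0.11 to 1.91, and both *IAA10* orthologs (blue) lie between 0 and the dotted line of a 2-fold increase.

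The other genes of subgroup B3, the orthologs of *IAA12* and *IAA13*, had values for 7 genes. Of these, 3 rated as 2-fold higher and 0 as 2-fold lower, against 1 and 0 of the 6 *IAA10* and *IAA11* orthologs. Their median log2 fold change was 0.59 (from -0.30 to 1.26), against 0.44 (from 0.08 to 1.91). With so few genes and 1 library per condition, no difference between both sets can be claimed. With 0.1 FPKM added, the first 2 by log2 fold change were the *IAA13* orthologs *BnaC03.IAA.1* (1.26), at 16.7 FPKM with IAA and 6.89 FPKM in the control, and *BnaA03.IAA.1* (1.24), at 1.59 FPKM with IAA and 0.613 FPKM in the control. The value of *BnaA03.IAA.1* rested on 18 estimated fragments with IAA and 9 in the control. The *IAA12* ortholog *BnaA10.IAA.4* was close behind (1.24), and as plain ratios of FPKM the order of these 3 genes was another, at 2.59-fold for *BnaA03.IAA.1* and 2.42-fold for both others. *BnaA03R.IAA.1* had a higher log2 fold change than any of the 7. The counting interval of its fold (2.54 to 6.26) overlapped that of *BnaA10.IAA.4* (1.54 to 3.88). Whether its fold exceeded those of the 7 beyond counting error was not tested.

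The *Aux/IAA* genes outside the *IAA10* and *IAA11* orthologs that were most like *BnaA03R.IAA.1* were sought by the distance between their values on the log2(FPKM + 0.1) scale over the 2 libraries. The nearest was the *IAA12* ortholog *BnaA10.IAA.4*, with 4.87 FPKM with IAA and 2.01 FPKM in the control (distance 0.48). It was followed by the *IAA30* ortholog *BnaC06.IAA.4*, with 4.05 FPKM with IAA and 1.25 FPKM in the control (distance 0.59), and the *IAA12* ortholog *BnaC05.IAA.4*, with 4.54 FPKM with IAA and 2.99 FPKM in the control (distance 1.02). A likeness over 2 values says little beyond a similar level and fold.

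*BnaA10.IAA.1* and *BnaC05.IAA.1* are each followed on their chromosome by orthologs of *IAA3*, *IAA17* and *IAA12*, in this order of gene identifiers, which matched the order of positions for the 94 *Aux/IAA* genes on placed chromosomes. On A10 all 3 of these genes had a larger fold than the *IAA10* ortholog. The *IAA3* ortholog *BnaA10.IAA.2*, at 53.1 FPKM with IAA and 6.90 FPKM in the control, had 7.27 times the fold of *BnaA10.IAA.1* (95% interval from 5.68 to 9.27). For the *IAA17* ortholog *BnaA10.IAA.3* the ratio of folds was 2.96 (from 2.37 to 3.73), and for the *IAA12* ortholog *BnaA10.IAA.4* it was 2.29 (from 1.42 to 3.75). On C05 the ratios to *BnaC05.IAA.1* were 3.26 for *BnaC05.IAA.2* (from 2.16 to 5.01), 2.11 for *BnaC05.IAA.3* (from 1.62 to 2.74) and 1.18 for *BnaC05.IAA.4* (from 0.803 to 1.72). The last interval included equal folds. Among these 4 genes the *IAA10* ortholog thus had the lowest fold on either chromosome, which on C05 held beyond counting error against 2 of the other 3. Farther along C05, *BnaC05.IAA.5* (log2 fold change 0.22) and *BnaC05.IAA.9* (-0.37) lay below *BnaC05.IAA.1* (0.36).

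**Figure D4:**
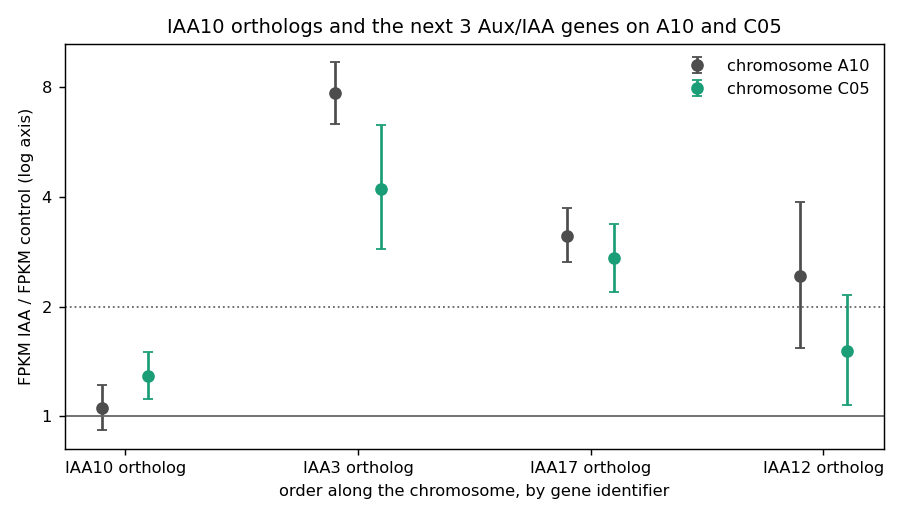
Fold difference (FPKM with IAA over FPKM in the control, log axis) of the *IAA10* orthologs and the 3 *Aux/IAA* genes that follow them on chromosomes A10 (grey) and C05 (green), with exact binomial intervals at 95% of the estimated fragments. Of the 4 genes plotted per chromosome, the *IAA10* orthologs, at 1.06 and 1.29, are the lowest and the *IAA3* orthologs, at 7.69 on A10 and 4.21 on C05, the highest.

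The nearest genes by identifier among the 63193 of the expression table were also examined, up to 5 on each side of the 6 genes. Identifiers absent from that table were passed over, and only neighbours that reached 1 FPKM in either library were kept. Around the 5 genes other than *BnaA03R.IAA.1*, the median log2 fold change of these neighbours lay between -0.16 and -0.01. Around *BnaA03R.IAA.1* it was -0.20 over 7 genes. At least 2-fold higher with IAA were 1 of 7 neighbours of *BnaA10.IAA.1*, 1 of 9 of *BnaC05.IAA.1* and 1 of 5 of *BnaA01.IAA.3*. The same held for 1 of 7 neighbours of *BnaA03R.IAA.1*, and for 0 of 7 each of *BnaC01.IAA.3* and *BnaC07.IAA.4*. Of all genes that reached 1 FPKM in either library, 2.51% were higher by this rule. With so few neighbours, no excess over that share can be claimed. Beside *BnaA03R.IAA.1* the higher neighbour was the next identifier, BnaA03g58920D, at 9.21 FPKM with IAA and 3.99 FPKM in the control (log2 fold change 1.18). Beside *BnaA10.IAA.1* it was also the next identifier, BnaA10g02390D, at 1.87 FPKM with IAA and 0.773 FPKM in the control (log2 fold change 1.17). Beside *BnaC05.IAA.1* it was BnaC05g02250D, at 3.81 FPKM with IAA and 0.829 FPKM in the control (log2 fold change 2.08). Beside *BnaA01.IAA.3* it was BnaA01g08260D, at 1.82 FPKM with IAA and 0.857 FPKM in the control (log2 fold change 1.00). Neither of these last genes was the nearest to its member. All were singled out after their values were seen. On the other side of *BnaA03R.IAA.1*, BnaA03g58830D was listed at 0 FPKM with IAA and at 17.9 FPKM in the control. On unplaced sequence adjacent identifiers need not be adjacent genes. Whether fragments of BnaA03g58920D and *BnaA03R.IAA.1* were shared was not tested.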

How the data were processed

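TruSeq libraries were sequenced on a HiSeq3000 instrument, and HISAT2 2.0.4 was used for alignment to Darmor-*bzh* v4.2. The FPKM values deposited by the authors come from Cufflinks 2.2.1, per gene and library; strand handling is not given in the sources used here. The table holds 63193 genes, none at 0 FPKM in both libraries.

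Names, orthologs and subgroups were taken from the supplementary lists of the study. The members and lists were chosen with earlier results of these data known. Log2 fold changes used 0.1 FPKM added to both values, and genes were called at a fold of 2. The DEGseq test of the study needs read counts and was not run.

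Fragments were estimated as FPKM times effective transcript length (coding sequence plus the annotated gene outside the reading frame, less mean fragment length) times depth. Depth and fragment length were those that turned the *Aux/IAA* values under 0.5 FPKM into whole fragments with the smallest mean deviation, 18300000 fragments and 195 bp with IAA (7 genes) and 23700000 fragments and 195 bp in the control (11 genes). Of the further genes with up to 20 fragments, 9 of 9 and 12 of 12 lay within 0.1 of a whole number. The depths had a ratio of 1.30, and among 5083 genes under 0.3 FPKM the commonest ratio of values above 1.1 was 1.29. A depth several times as high would also give whole numbers, and narrower intervals; the lowest was used. Intervals were exact binomial (Clopper-Pearson) for folds within a gene, conditional exact for ratios of folds and exact Poisson for levels. They take the depths and transcript lengths as known and cover counting error only. Depth estimate and intervals were tested on simulated data.

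The genes named were all members, the 2 largest changes among the *IAA12* and *IAA13* orthologs, and the 3 *Aux/IAA* genes nearest to the member with the largest change. The neighbours on the chromosomes and the comparisons among members were added after the values were seen. Other pseudocounts (1, 0.01 and 0 FPKM), filters (1 FPKM in either library or 0.5 FPKM in both), centring, upper-quartile scaling and fold thresholds (1.5 and 4) were tried. Python 3.11.15, numpy 2.4.6, pandas 2.3.3, scipy 1.17.1 and matplotlib 3.10.9 were used.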

Additional observations from a re-analysis of the deposited data

How the results depend on the processing

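No paired analysis was possible because the labels give a single library for IAA and for the control. For the 6 genes, all 30 log2 fold changes recomputed with other pseudocounts, centring or upper-quartile scaling stayed within the counting interval of their gene. All also stayed above 0, but no setting tried could have changed this, so it is no check. An equal pseudocount leaves the larger value larger, and both scalings raised every fold. The ratio without a pseudocount was added after the values were seen. *BnaA03R.IAA.1* ran from 1.46 with 1 FPKM added to 1.995 after centring. Centring, by 0.09 on the log2 scale, left 3 intervals that excluded equal levels and 3 that included them, but it moved the upper limit of *BnaC07.IAA.4* to 2.06, past 2-fold. The number of the 6 genes rated as higher at a fold threshold of 2 was 1, but it was 2 at a threshold of 1.5 and 0 at a threshold of 4. Their median log2 fold change lay between 0.38 and 0.53.

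Over all genes, the counts of 2668 higher and 5487 lower became 666 and 873 when 1 FPKM was added, and 4311 and 9099 when 0.01 FPKM was added. They were 1103 and 2137 among genes that reached 1 FPKM in either library, and 752 and 1408 among those that reached 0.5 FPKM in both. A fold threshold of 1.5 gave 5635 and 12204, and one of 4 gave 724 and 1160. The filters, thresholds and pseudocounts change which genes are counted by construction. A larger pseudocount brings every fold nearer to equal levels, so that fewer genes pass a given threshold. Depth limits *BnaA01.IAA.3* and *BnaC01.IAA.3* most, with 19 to 37 estimated fragments.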
